A study of Mus musculus with 8 samples.

Results

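The 32 genes described here encode the machinery that copies DNA in S phase, and they were followed in antigen-experienced conventional CD4 T cells of the inflamed spinal cord and brain. They were chosen by name, and all 32 were among the 32285 gene features of each of 4 single-cell RNA libraries. By role they comprised 6 subunits of the MCM helicase, 11 proteins of the replication origin and fork, 5 enzymes of nucleotide supply and uracil handling, 6 chromatin and histone proteins, and 4 cell cycle regulators. All cells came from Foxp3-Cre-YFP mice, in which the Foxp3 gene drives Cre and a yellow fluorescent protein. The mice had been immunized to develop EAE (experimental autoimmune encephalomyelitis), which models multiple sclerosis. CD44+ Foxp3-YFP- TCRβ+ CD11b- CD4 T cells were sorted from spinal cord at day 50 and day 14 and from brain at day 50 and day 14 after immunization, with the meninges removed from the brain. Day 14 is the acute and day 50 the chronic phase of disease, and no cells of unimmunized mice were among these libraries. Each of the 4 groups was 1 library, and the number of mice behind a library, their age and any pairing of tissues by mouse are not given in the sources used here.

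Replication starts when Cdc6 helps to load the ring of MCM proteins onto origins in G1. Cdc45 and the GINS complex then switch the ring on as the helicase of the moving fork, and the Pcna clamp holds polymerases to the DNA. E2F transcription factors turn on most of these genes as a cell passes from G1 into S phase. T cells divide rapidly after antigen encounter, whereas resting memory T cells rarely divide.

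UMIs (unique molecular identifiers) each stand for 1 captured transcript. Cells needed 500 genes or more, with no more than 10% of UMIs mitochondrial, which left 1620 cells in spinal cord at day 50, 9270 in spinal cord at day 14, 348 in brain at day 50 and 10313 in brain at day 14. RNA totals were 6078142, 50710551, 1177903 and 47272714 UMIs in that order, with median UMIs per cell between 3014.5 and 4921. The 7 T cell markers summed to between 6509 and 6764 CPM (counts scaled to a library total of 1000000 UMIs) in every library, Foxp3 had at most 2 UMIs in any library, and B cell markers stayed at or under 1.70 CPM. The 5 dendritic cell markers summed to 10.4 CPM in spinal cord at day 50, 14.7 CPM in spinal cord at day 14, 95.9 CPM in brain at day 50 and 14.2 CPM in brain at day 14. Flt3 was at 0 in all 4 libraries and Itgax at 0 in both day 50 libraries. The 4 gamma-delta T cell markers (Trdc and 3 Tcrg constant genes) summed to 22.5 CPM in spinal cord at day 50, 6.61 CPM in spinal cord at day 14, 12.7 CPM in brain at day 50 and 8.91 CPM in brain at day 14, and all 4 were called higher at day 50 in spinal cord by the rule given below. The endothelial pair summed to 16.1, 60.3, 30.6 and 39.8 CPM in the same order, all of it Pecam1, with Cldn5 at 0 in every library. The 4 neural markers summed to 52.6, 75.8, 45.8 and 50.5 CPM in that order. The 7 myeloid and microglial markers summed to 8.23, 15.8, 8.49 and 7.59 CPM. The part of the dendritic, gamma-delta, endothelial, neural and myeloid transcripts in the results was not tested. Spinal cord and brain at day 14 shared 33 cell barcodes among kept cells, and no other pair of libraries shared more than 4.

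Together the 32 genes held 4488 UMIs in spinal cord at day 50, 56212 in spinal cord at day 14, 957 in brain at day 50 and 51158 in brain at day 14. As levels these sums were 738 CPM (95% Poisson interval 717 to 760) in spinal cord at day 50 and 1108 CPM (1099 to 1118) in spinal cord at day 14. In brain they were 812 CPM (762 to 866) at day 50 and 1082 CPM (1073 to 1092) at day 14. The sum was lower at day 50 in both tissues, and the intervals of the 2 days did not overlap in either. A median over all genes tested also moved between libraries, by -0.33 on the log2 scale in spinal cord and -0.14 in brain, and was subtracted from each ratio below unless stated otherwise. After subtraction the sum differed by -0.25 (-0.30 to -0.21) in spinal cord and -0.28 (-0.37 to -0.18) in brain, as log2 ratios of day 50 over day 14. Neither reached 1.5-fold. Without subtraction the spinal cord sum differed by -0.59 and did reach it. With every cell thinned to 2000 UMIs, which gives all cells one depth, the difference was smaller, at -0.08 (-0.15 to -0.01) in spinal cord and -0.16 (-0.31 to -0.00484) in brain, and as a mean over cells of each cell's share it was -0.04 and -0.08. Without the 2 cells richest in these transcripts in each library it was -0.30 in spinal cord and -0.52 in brain. Those 2 cells are a larger part of the smaller day 50 libraries, so leaving them out lowers these ratios by construction. All intervals cover counting error only, and with 1 library a group no test across mice was possible.

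**Figure D1:**
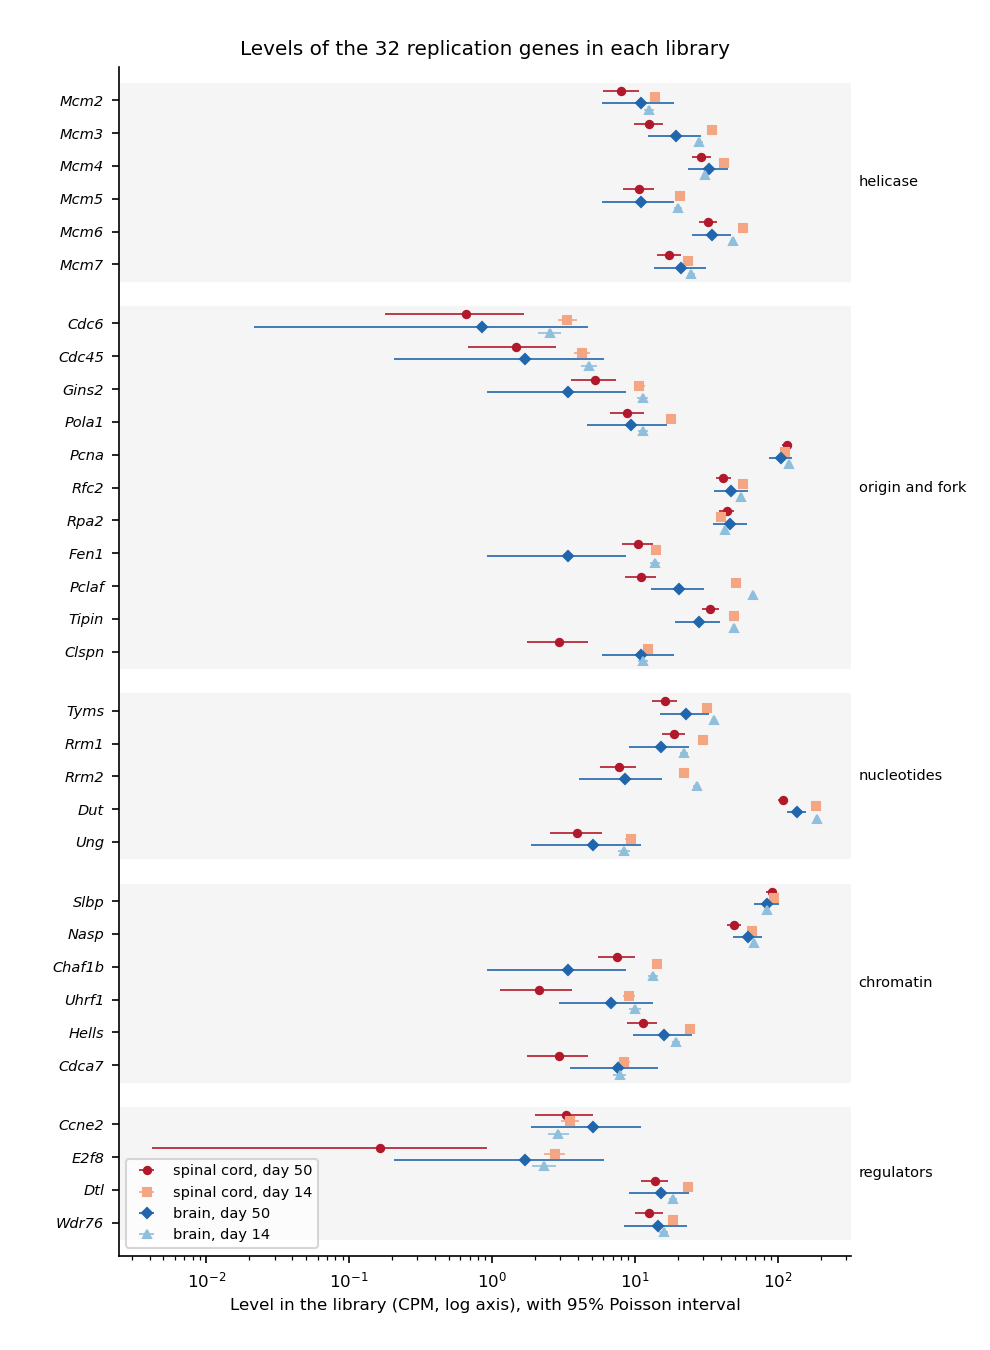
Level of each of the 32 genes in CPM on a log axis, with genes down the page by role and 1 symbol per library; bars are 95% Poisson intervals of the summed counts. The day 50 symbols of Pclaf, Rrm2 and Cdc6 lie left of the day 14 symbols in both tissues, whereas the 4 symbols of Pcna, Slbp and Rpa2 nearly coincide.

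A gene was compared where 10 or more UMIs were counted over both libraries, and called where its ratio was at least 1.5-fold and its exact 95% interval excluded 1. In spinal cord, 16 of the 32 genes were called lower at day 50 than at day 14 and 0 higher, where 10.4% of all 13175 genes tested were called lower and 13% higher. Their median log2 ratio was -0.54, against 0 for all genes after subtraction, and 28 of the 32 lay below 0. In brain, 6 of the 32 were called lower and 0 higher, where 3.31% of all 12802 genes were called lower and 7.33% higher, and the median was -0.33 with 26 below 0. Without subtraction 21 of the 32 were called lower in spinal cord, where 23.9% of all genes were lower and 6.76% higher, and 8 in brain, where 5.7% were lower and 5.16% higher; 0 of the 32 were called higher in either. Rrm2, Gins2, Chaf1b and Pclaf were called lower in both tissues, which is 66.7% of the brain list and 25% of the spinal cord list. Of all 32 genes, 16 were lower in spinal cord and 6 in brain, so this overlap is a description only. Fen1 and Tipin were called lower in brain and not in spinal cord. The difference between the tissues' changes was not tested, and the day 50 brain library held the fewest UMIs.

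The change was uneven among the genes. Pclaf, Rrm2, Cdc6 and Clspn lost most of their level in spinal cord, whereas Pcna, Slbp and Rpa2 were not called. Cells of the day 50 spinal cord library were shallower, with a median of 3470.5 UMIs per cell against 4921 at day 14. When each cell was thinned to 2000 UMIs, 12 of 32 genes were called lower in spinal cord and 1, Rpa2, higher. Over 20 other random draws between 4 and 12 were called lower. Gins2, Tyms and Chaf1b were among the spinal cord genes no longer called lower in the thinned draw used, and Dtl was newly called lower. In brain, thinning left 0 called lower, and between 0 and 4 over the other draws.

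**Figure D2:**
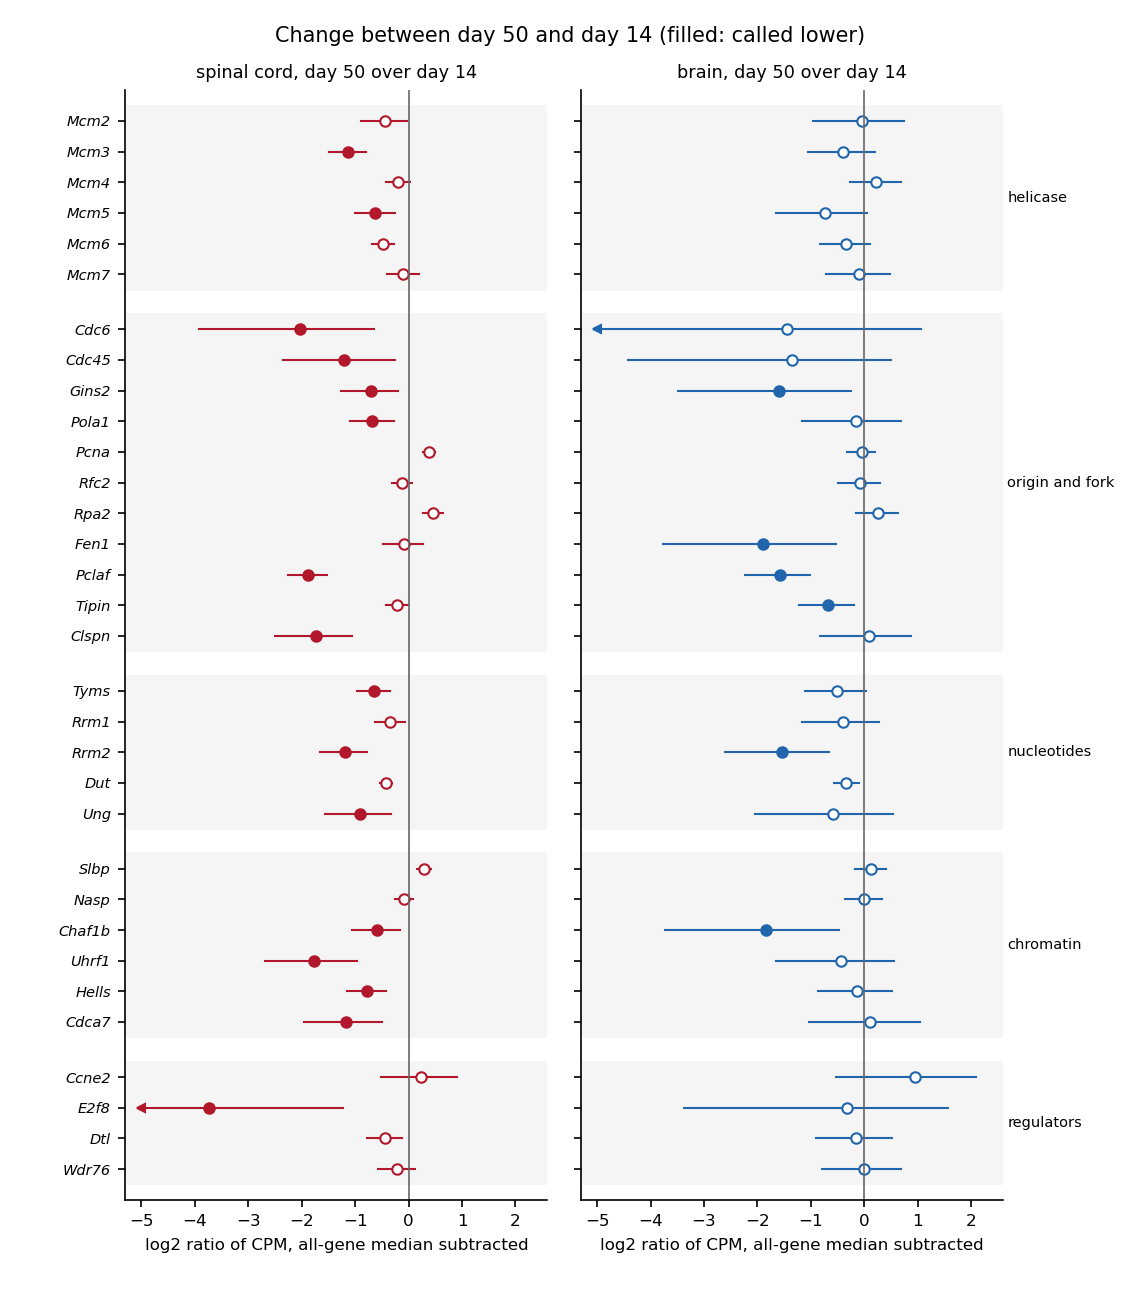
Log2 ratio of day 50 over day 14 for each of the 32 genes in spinal cord (left) and brain (right), with the all-gene median subtracted and exact 95% intervals of counting error; filled circles mark genes called lower, and an arrowhead marks an interval that runs past the axis. In spinal cord 16 circles are filled, and in brain 6.

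The 6 MCM subunits form one ring, and their transcripts were not all called alike. Mcm3 was measured at 12.5 CPM in spinal cord at day 50, 34.5 CPM in spinal cord at day 14, 19.5 CPM in brain at day 50 and 28.3 CPM in brain at day 14. Mcm5 was measured at 10.7, 20.7, 11 and 20.2 CPM in the same order of libraries. Both fell in spinal cord, Mcm3 by 1.13 (log2 ratio -1.13, interval -1.48 to -0.80) and Mcm5 by 0.62 (-0.62, -1.01 to -0.26). The remaining 4 subunits were not called in spinal cord. Mcm2 had a log2 ratio of -0.45 (-0.90 to -0.03), Mcm6 of -0.48 (-0.69 to -0.27), Mcm4 of -0.19 (-0.42 to 0.03) and Mcm7 of -0.10 (-0.40 to 0.19). All 4 of these intervals overlap that of Mcm5, and differences between subunits were not tested. Without subtraction 4 of 6 were called lower in spinal cord, and in thinned cells Mcm5 was not called (-0.33). In brain 0 of 6 were called, with log2 ratios between -0.73 for Mcm5 and 0.23 for Mcm4. Summed over the ring, the spinal cord level was 111 CPM at day 50 and 192 CPM at day 14, a log2 ratio of -0.46 (-0.58 to -0.35).

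Among the 11 origin and fork genes, 6 were called lower in spinal cord and 4 in brain. Pclaf, which encodes a small protein bound to the Pcna clamp, had the spinal cord interval farthest from no change among the 32 genes; it is ENSMUSG00000040204, at chr9:65890323-65903551 (GRCm38.p6). It was measured at 11 CPM in spinal cord at day 50, 51.2 CPM in spinal cord at day 14, 20.4 CPM in brain at day 50 and 67.2 CPM in brain at day 14. Its log2 ratio was -1.88 (-2.25 to -1.53) in spinal cord and -1.59 (-2.23 to -1.01) in brain. Pclaf UMIs came from few cells: 10 of 1620 cells held one in spinal cord at day 50, 337 of 9270 in spinal cord at day 14, 5 of 348 in brain at day 50 and 548 of 10313 in brain at day 14. The 2 cells with the most Pclaf held 41.8% of its UMIs in spinal cord at day 50 and 70.8% in brain at day 50.

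Cdc6, the loader of the helicase, had 4 UMIs in spinal cord at day 50, 171 in spinal cord at day 14, 1 in brain at day 50 and 120 in brain at day 14. Its log2 ratio was -2.03 (-3.92 to -0.64) in spinal cord, and in brain its interval of -6.76 to 1.06 spanned no change. Cdc45, which joins the helicase at activation, had 9, 217, 2 and 227 UMIs in the same order, and fell in spinal cord (log2 ratio -1.20, -2.35 to -0.25). Gins2, a subunit of the GINS complex, fell in spinal cord (-0.70, -1.27 to -0.19) and in brain (-1.60, -3.49 to -0.24), where its day 50 level rested on 4 UMIs. In thinned cells Gins2 was not called in spinal cord (-0.36) or in brain (-0.89). Clspn, which relays the signal of stalled forks, was measured at 2.96 CPM in spinal cord at day 50, 12.4 CPM in spinal cord at day 14, 11 CPM in brain at day 50 and 11.4 CPM in brain at day 14. Clspn was called lower in spinal cord (log2 ratio -1.74, -2.50 to -1.06) and not in brain, where the ratio was 0.08 (-0.83 to 0.87). Pola1, the catalytic subunit of the polymerase that makes the first DNA on each primer, fell in spinal cord (-0.67, -1.10 to -0.28) and had a brain ratio of -0.16.

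With cells not thinned, the clamp and the single-strand binding protein were not called in either tissue. Pcna, the clamp itself, was measured at 116 CPM in spinal cord at day 50, 113 CPM in spinal cord at day 14, 105 CPM in brain at day 50 and 120 CPM in brain at day 14. Rpa2, a subunit of the protein that coats single-stranded DNA, was measured at 44.3, 40.3, 46.7 and 43.2 CPM in that order. After subtraction their spinal cord ratios were 0.38 (0.26 to 0.49) for Pcna and 0.47 (0.28 to 0.65) for Rpa2. In thinned spinal cord cells Rpa2 was called higher at day 50 (0.60) and Pcna was not called (0.48). Rfc2, a subunit of the clamp loader, had ratios of -0.11 in spinal cord and -0.08 in brain. Fen1, which trims Okazaki fragment flaps, had 64 UMIs in spinal cord at day 50, 716 in spinal cord at day 14, 4 in brain at day 50 and 656 in brain at day 14. It fell in brain (log2 ratio -1.89, -3.77 to -0.53) and was not called in spinal cord (-0.09, -0.48 to 0.28). Tipin, a fork protection factor, fell in brain (-0.68, -1.22 to -0.19) and had a ratio of -0.22 in spinal cord. In thinned brain cells neither Fen1 (-0.70) nor Tipin (-0.20) was called.

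Of the 5 nucleotide genes, Rrm2, Tyms and Ung fell in spinal cord and Rrm2 alone was called in brain. Rrm2 is the subunit of ribonucleotide reductase that cells make around S phase. It was measured at 7.73 CPM in spinal cord at day 50, 22.3 CPM in spinal cord at day 14, 8.49 CPM in brain at day 50 and 27.1 CPM in brain at day 14. Its log2 ratio was -1.20 (-1.65 to -0.77) in spinal cord and -1.54 (-2.60 to -0.65) in brain. Rrm1, its partner subunit, was not called in either tissue, at -0.34 (-0.63 to -0.06) and -0.40 (-1.16 to 0.27). Tyms, which makes thymidylate, fell in spinal cord by 0.65 (-0.65, -0.96 to -0.35) and Ung, which removes uracil from DNA, by 0.91 (-0.91, -1.57 to -0.32). In thinned spinal cord cells Ung was called lower (-1.36) and Tyms was not called (-0.51). Dut, which clears dUTP, was measured at 109 CPM in spinal cord at day 50, 185 CPM in spinal cord at day 14, 136 CPM in brain at day 50 and 188 CPM in brain at day 14. Its ratios of -0.43 in spinal cord and -0.33 in brain were under 1.5-fold after subtraction, and the spinal cord ratio of -0.76 before subtraction was over it.

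In the chromatin group the genes of DNA methylation maintenance fell in spinal cord, as did Chaf1b, whereas Slbp and Nasp were not called. Uhrf1, which brings the maintenance methyltransferase to newly copied DNA, was measured at 2.14 CPM in spinal cord at day 50, 9.13 CPM in spinal cord at day 14, 6.79 CPM in brain at day 50 and 10.1 CPM in brain at day 14. Its spinal cord log2 ratio was -1.76 (-2.68 to -0.97), and its brain ratio of -0.43 was not called. Hells, a chromatin remodeller, and Cdca7, its partner, fell in spinal cord by 0.78 (-0.78, -1.15 to -0.43) and 1.18 (-1.18, -1.95 to -0.50). Slbp, which binds the stem-loop of histone mRNAs, was measured at 91.0 CPM in spinal cord at day 50, 93.8 CPM in spinal cord at day 14, 84.0 CPM in brain at day 50 and 84.7 CPM in brain at day 14. Its 4 levels lay close together, and its ratios of 0.29 in spinal cord and 0.13 in brain were not called. Nasp, a histone chaperone, had ratios of -0.08 and -0.01. Chaf1b, a subunit of the complex that places histones behind the fork, fell in spinal cord (-0.59, -1.06 to -0.16) and in brain (-1.84, -3.72 to -0.48), with 4 UMIs in brain at day 50. In thinned cells Chaf1b was not called in spinal cord (-0.41) or in brain (-1.35).

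Of the 4 regulators only E2f8 was called, in spinal cord. E2f8, an E2F family repressor, had 1 UMI in spinal cord at day 50, 140 in spinal cord at day 14, 2 in brain at day 50 and 110 in brain at day 14. Its spinal cord ratio was -3.74 with an interval of -9.05 to -1.24, and the brain interval of -3.38 to 1.57 spanned no change. Ccne2, cyclin E2, had ratios of 0.23 in spinal cord and 0.94 in brain with intervals that spanned no change. Dtl, which targets the licensing factor Cdt1 for destruction, had a spinal cord ratio of -0.44 (-0.77 to -0.12), under 1.5-fold. In thinned spinal cord cells Dtl was called lower (-0.73). Wdr76 had ratios of -0.22 and 0.00.

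Because E2F factors are known to bind near the starts of many replication genes, the 250 bases before the annotated start were read from RefSeq sequences (build GRCm38.p6) for the 27 of 32 genes that matched by symbol. At least one of the 8-letter E2F-type words TTTCCCGC, TTTCGCGC, TTTGCCGC and TTTGGCGC, on either strand, was present in 9 of the 27, against 2.16% of 27025 genes in the same table. The 9 were Cdc6, Cdca7, Dtl, Hells, Mcm5, Mcm6, Mcm7, Pola1 and Uhrf1. The word CCAAT, on either strand, was present in 18 of the 27 (66.7%) against 37.5% of all, and the words TTTGAA or TTCGAA in 7 of the 27 (25.9%) against 19.6%. Where the table gave a gene more than one start, as for Fen1, Mcm7, Uhrf1 and Wdr76, a gene counted if any of its starts had the word, here and among all genes. Mcm7 and Uhrf1 each held an E2F-type word at one of their starts and not at the other. The Uhrf1 promoter printed is that of the inner start, and its outer start, at the annotated edge of the gene, held none. The printed Cdc6 sequence also lies inside the annotated gene, whose edge is at chr11:98907709. The printed Mcm5 sequence runs past the edge of its gene at chr8:75109468. Words were counted wherever they occurred, also where 2 overlapped, as the pair of E2F-type words on opposite strands does in Mcm5 and in Mcm6. A match is a description of letters, and a promoter without a match may hold other forms of the site. Below are 3 promoters with E2F-type words from genes called lower in spinal cord, followed by Mcm6, which holds 3 words and was not called. The last pair are Pclaf, called lower in both tissues, with no such word, and Slbp, with no such word and not called; capitals mark E2F-type words, and each runs 5′ to 3′ toward the start.
Cdc6 (chr11:98907901-98908150, plus strand): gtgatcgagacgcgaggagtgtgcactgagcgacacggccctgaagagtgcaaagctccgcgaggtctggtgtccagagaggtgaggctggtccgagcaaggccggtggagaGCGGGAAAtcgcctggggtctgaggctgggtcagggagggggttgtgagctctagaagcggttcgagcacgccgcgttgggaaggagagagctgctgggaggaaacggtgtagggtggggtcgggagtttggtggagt
Mcm5 (chr8:75109259-75109508, plus strand): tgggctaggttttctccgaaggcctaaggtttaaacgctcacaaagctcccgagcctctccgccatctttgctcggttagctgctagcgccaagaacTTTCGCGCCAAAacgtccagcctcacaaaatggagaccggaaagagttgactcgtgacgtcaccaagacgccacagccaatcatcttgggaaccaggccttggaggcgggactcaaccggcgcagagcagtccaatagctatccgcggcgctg
Uhrf1 (chr17:56304063-56304312, plus strand): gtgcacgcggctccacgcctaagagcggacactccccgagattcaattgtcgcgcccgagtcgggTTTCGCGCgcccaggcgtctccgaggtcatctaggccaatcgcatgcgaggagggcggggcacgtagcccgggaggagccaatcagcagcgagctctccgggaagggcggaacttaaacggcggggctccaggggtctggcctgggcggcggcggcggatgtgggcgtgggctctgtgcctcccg
Mcm6 (chr1:128359706-128359955, minus strand): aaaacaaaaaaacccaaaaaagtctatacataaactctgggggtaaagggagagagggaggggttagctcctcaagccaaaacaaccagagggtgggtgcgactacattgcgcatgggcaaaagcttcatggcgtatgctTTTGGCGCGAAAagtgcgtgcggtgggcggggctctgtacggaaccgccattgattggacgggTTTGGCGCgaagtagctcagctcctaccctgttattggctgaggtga
Pclaf (chr9:65890073-65890322, plus strand): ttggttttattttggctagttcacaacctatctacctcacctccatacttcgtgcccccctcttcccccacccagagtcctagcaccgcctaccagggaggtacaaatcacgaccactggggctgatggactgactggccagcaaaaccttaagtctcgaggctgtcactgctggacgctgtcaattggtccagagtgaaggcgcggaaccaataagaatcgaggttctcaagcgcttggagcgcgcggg
Slbp (chr5:33652575-33652824, minus strand): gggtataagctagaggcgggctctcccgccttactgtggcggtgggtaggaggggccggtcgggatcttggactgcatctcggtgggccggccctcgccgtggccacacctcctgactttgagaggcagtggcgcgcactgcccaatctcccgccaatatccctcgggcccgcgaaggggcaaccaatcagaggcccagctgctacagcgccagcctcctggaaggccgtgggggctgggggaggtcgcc
Of the 9 genes with an E2F-type word, 6 were called lower in spinal cord and 0 in brain, with median log2 ratios of -0.67 and -0.16. Of the 18 without one, 9 were called lower in spinal cord and 4 in brain, with medians of -0.52 and -0.37. Both groups of promoters thus held genes that fell and genes that were not called.

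All counts over further lists below stand against the same shares of all genes, 10.4% lower and 13% higher in spinal cord and 3.31% lower and 7.33% higher in brain. These lists were chosen with earlier results of these data known. Other genes of DNA replication were taken from a second list of 53, holding the rest of the origin, polymerase and licensing machinery. In spinal cord 14 of 53 were called lower and 1 higher at day 50, with a median of -0.31, and in brain 7 were lower and 2 higher, with a median of -0.27. Timeless, the fork partner of Tipin, was at 1.32 CPM in spinal cord at day 50 and 7.59 CPM at day 14 (log2 ratio -2.20, -3.42 to -1.20). Chaf1a, the partner of Chaf1b, was at 1.15 and 5.48 CPM at day 50 and day 14 (-1.92, -3.25 to -0.86), and Lig1, which seals Okazaki fragments, was at 15.0 and 40.4 CPM (-1.10, -1.42 to -0.80). Dbf4, the activating subunit of the Cdc7 kinase that fires origins, went the other way in both tissues. It was at 53.1 CPM in spinal cord at day 50 and 27.6 CPM at day 14 (1.28, 1.10 to 1.45), and at 49.2 CPM in brain at day 50 and 30.9 CPM at day 14 (0.81, 0.41 to 1.19). In brain the fallen genes of this list included Gmnn, the inhibitor of relicensing, at 27.2 CPM at day 50 and 56.0 CPM at day 14, and Dctpp1, a nucleotide pool enzyme, at 33.1 and 76.4 CPM.

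Genes of S phase repair were read beside them, and in spinal cord 7 of 12 were called lower and 0 higher. Bard1, the partner of Brca1 in homologous repair, was at 1.32 CPM in spinal cord at day 50 and 5.72 CPM at day 14 (log2 ratio -1.79, -3.01 to -0.79). Brca2, which serves the same pathway, was at 2.30 and 7.85 CPM at day 50 and day 14 (-1.44, -2.32 to -0.67), and Chek1, a checkpoint kinase of stalled forks, at 0.823 and 3.75 CPM (-1.86, -3.49 to -0.61). In brain 1 of 12 was called lower and 0 higher.

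Upstream regulators were called in both directions. Of 18 genes of E2F and G1/S control, 4 were called lower and 1 higher in spinal cord, and of the 17 compared in brain 1 was lower and 1 higher. E2f2, an activating E2F, was at 2.30 CPM in spinal cord at day 50 and 10.4 CPM at day 14 (-1.84, -2.73 to -1.09), and Ccne1, cyclin E1, at 4.28 and 12.6 CPM (-1.23, -1.85 to -0.66). Cdk6 fell in spinal cord (-0.83) while Cdk4, the other G1 kinase of cyclin D, was at 121 CPM at day 50 and 75.1 CPM at day 14 (1.02, 0.91 to 1.14). In brain E2f2 fell (-1.38, -3.26 to -0.01, on 4 UMIs at day 50) and Ccnd2, cyclin D2, rose to 182 CPM at day 50, against 110 CPM at day 14.

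Of 9 brakes on the cell cycle, 5 were called higher and 0 lower in spinal cord at day 50, and 4 higher and 1 lower in brain. Btg1, an antiproliferative protein abundant in resting T cells, was at 2028 CPM in spinal cord at day 50, 1086 CPM in spinal cord at day 14, 2859 CPM in brain at day 50 and 1383 CPM in brain at day 14. Tob1, of the same family, was at 59.4 CPM in spinal cord at day 50 and 25.7 CPM at day 14 (log2 ratio 1.54, 1.37 to 1.71). Cdkn1a, the CDK inhibitor p21, rose in spinal cord (0.95) and in brain (0.83), and Cdkn2d fell in brain (-0.74).

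The phases after S phase were read from 26 genes of G2 and mitosis. Of these 21 were called lower and 0 higher in spinal cord (10.4% and 13% of all genes), and 9 lower and 1 higher in brain (3.31% and 7.33%). Mki67, the proliferation antigen, was at 7.73 CPM in spinal cord at day 50, 42.7 CPM in spinal cord at day 14, 9.34 CPM in brain at day 50 and 30.8 CPM in brain at day 14. A pair of short lists of T cell state was read beside these, both chosen with earlier results of these data known. Of 12 effector genes 5 were lower and 1 higher in spinal cord and 3 lower and 2 higher in brain. Of 12 memory and tissue exit genes 0 were lower and 4 higher in each tissue. The 4 were Eomes, Gzmk, Ccl5 and Ccr7 in both tissues, and these counts are a description only. The transcription factor Eomes was called higher at day 50 in both, with log2 ratios of 3.82 in spinal cord and 3.0 in brain.

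Tissues were also compared on the same day. At day 14, spinal cord over brain, 1 of 32 was called lower and 0 higher, where 6.24% of all 13868 genes were called lower and 6.4% higher. That gene was Pclaf, with a log2 ratio of -0.59 (-0.67 to -0.52) after 0.20 was subtracted, and it was not called without subtraction (-0.39). Pola1 was called higher in spinal cord only without subtraction (0.64), and its subtracted ratio was 0.44 (0.28 to 0.59). Without subtraction 0 of the 32 genes were thus lower and 1 higher, where 3.66% of all genes were lower and 14.7% higher. The sum of the 32 genes differed by -0.17 (-0.18 to -0.15) after subtraction and by 0.03 without it. Of the G2 and mitosis genes, 17 of 26 were called lower in spinal cord than in brain at day 14, among them Ube2c at 21.6 CPM in spinal cord and 51.1 CPM in brain (-1.45, -1.55 to -1.34) and Ccnb2, cyclin B2, at 11.3 and 25.8 CPM (-1.39). Of the other replication genes 3 of 53 were lower, with Tk1, thymidine kinase, at 9.94 CPM in spinal cord and 13.9 CPM in brain. None of 12 S phase repair genes was called in either direction.

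At day 50, 30 of the 32 genes had enough UMIs for a comparison of spinal cord with brain, and Cdc6 and E2f8 did not. Of the 30, 4 were called lower and 1 higher, where 4.41% of 10309 genes were called lower and 2.6% higher, and no median was subtracted. The lower genes were Clspn (log2 ratio -1.90, -3.01 to -0.75), Uhrf1 (-1.67, -3.05 to -0.19), Cdca7 (-1.37, -2.60 to -0.03) and Pclaf (-0.89, -1.58 to -0.15). The higher gene was Fen1, with 64 UMIs in spinal cord and 4 in brain (1.63, 0.21 to 3.55). These calls rest on few cells: 1 of the 4 remained lower when the 2 cells richest in each gene were left out. Those 2 cells are a larger part of the brain library, the smaller one. Among 23 G2 and mitosis genes compared, 10 were lower in spinal cord, led by Ube2c at 10.4 CPM in spinal cord and 82.3 CPM in brain. Ube2c was at 51.1 CPM in brain at day 14, so its brain level was higher at day 50, unlike the 9 genes of this list called lower there. Unthinned, 10 of 348 cells of brain at day 50 held 2 or more of the 26 genes of this list.

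Counted per cell, replication transcripts were sparse in most cells of all 4 libraries. To compare cells at one depth, each cell with at least 2000 UMIs was thinned to 2000, which left 1493 cells in spinal cord at day 50, 9128 in spinal cord at day 14, 250 in brain at day 50 and 9150 in brain at day 14. After thinning, at least 1 of the 32 genes was seen in 72.9% of cells in spinal cord at day 50, 75.7% in spinal cord at day 14, 73.6% in brain at day 50 and 73.4% in brain at day 14. These shares lay within 3 percentage points of one another. Unthinned, the shares were 87.3%, 94.7%, 82.5% and 88.5%. The median thinned cell held 1 UMI of the set in every library, and the 99th percentile cell held 5 UMIs in spinal cord at day 50, 15 in spinal cord at day 14, 7 in brain at day 50 and 15 in brain at day 14. No cell type that should lack these genes was among the cells, so the share given by free RNA was not measured.

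**Figure D3:**
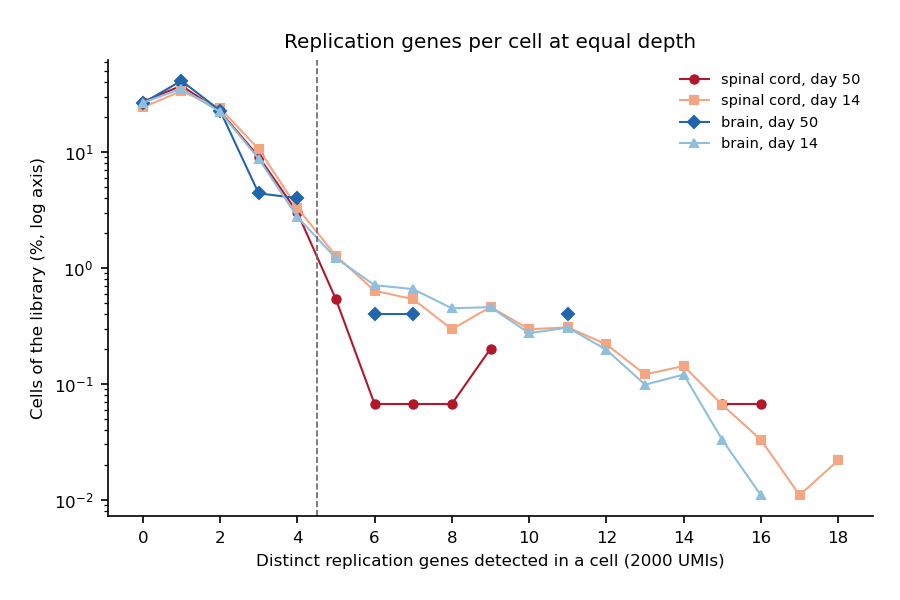
Share of cells (percent, log axis) by how many of the 32 genes were detected in the cell after thinning to 2000 UMIs, with 1 line per library and gaps where no cell was found; the dashed line marks the limit of 5 genes. The 4 lines lie close together up to 2 genes, and from 5 to 8 genes the spinal cord line of day 50 lies below both lines of day 14.

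Cells with 5 or more distinct replication genes at this depth are called replication-rich below. This is a range cut from a count, not a cell type: 8 cells sat at the limit and 45 were 1 gene short of it in spinal cord at day 50, and 116 and 301 in spinal cord at day 14. In brain 0 cells sat at the limit and 10 were 1 gene short at day 50, and 111 and 252 at day 14. Replication-rich cells were 16 of 1493 (1.07%, Clopper-Pearson 95% interval 0.614 to 1.73) in spinal cord at day 50 and 403 of 9128 (4.41%, 4.0 to 4.86) in spinal cord at day 14. In brain they were 3 of 250 (1.20%, 0.248 to 3.47) at day 50 and 414 of 9150 (4.52%, 4.11 to 4.97) at day 14. In this draw the intervals of the 2 days did not overlap in either tissue. Over 20 other draws the day 50 shares ran from 0.938% to 1.88% in spinal cord and from 1.20% to 2.80% in brain. The median counts were 21 cells in spinal cord and 5 in brain, so the 3 brain cells used here equal the lowest count. In some brain draws the intervals overlapped with those of day 14. Unthinned, 7.10% of cells held 5 or more of the genes in spinal cord at day 50, 23.7% in spinal cord at day 14, 6.90% in brain at day 50 and 16.3% in brain at day 14.

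The sum of the 32 genes was split by the class of the cell. Since the class was cut from the same genes, each gene's UMIs were sorted by a class set by the other 31, so that a gene did not place its own cells; the 32 genes still occur together, so the split is a description. Relative to all thinned UMIs, replication-rich cells contributed 41.2 CPM of the sum in spinal cord at day 50, 207 CPM in spinal cord at day 14, 92 CPM in brain at day 50 and 208 CPM in brain at day 14. All other cells contributed 664 CPM in spinal cord at day 50, 728 CPM in spinal cord at day 14, 624 CPM in brain at day 50 and 675 CPM in brain at day 14. Both contributions were smaller at day 50 than at day 14 in each tissue in this draw, with no median subtracted. With the class set by all 32 genes and the all-gene median subtracted, the sum outside replication-rich cells was not lower at day 50. Its log2 ratio was 0.17 (0.10 to 0.24) in spinal cord and 0.06 (-0.11 to 0.22) in brain. Over 20 other draws the other cells of brain contributed 578 to 674 CPM at day 50 and 636 to 657 CPM at day 14.

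**Figure D4:**
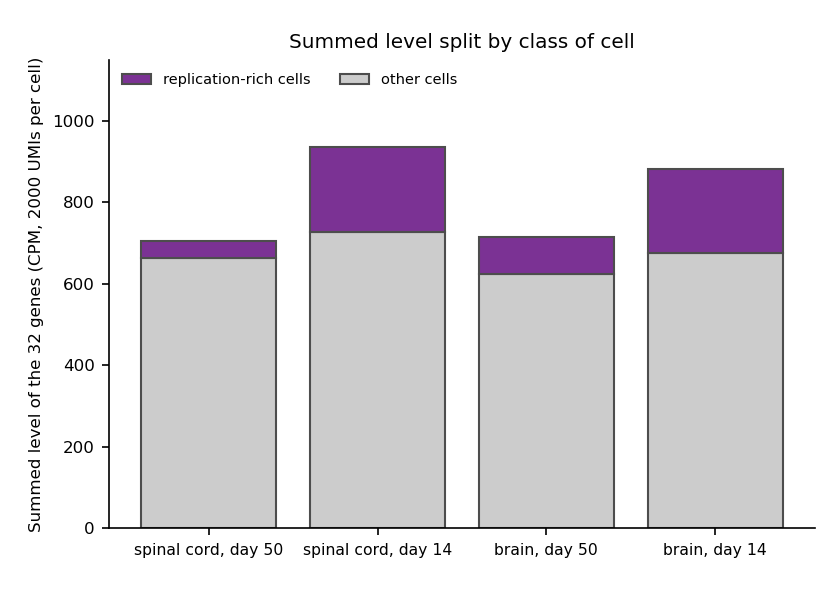
Summed level of the 32 genes in CPM, from cells thinned to 2000 UMIs, split into the contribution of replication-rich cells (5 or more of the genes detected, each gene's class set by the other 31) and of all other cells; 1 bar per library, with axis from 0. The grey parts lie between 624 and 728 CPM, and the coloured parts are 41.2 and 92 CPM at day 50 and 207 and 208 CPM at day 14.

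The genes differed widely in how far they were confined to such cells. Here too each gene's class of cells was set by the other 31 genes. In spinal cord at day 14, replication-rich cells held 86.2% of Cdc6 UMIs, 85.8% of Pclaf, 71.0% of E2f8, 70.9% of Rrm2, 56.0% of Clspn, 54.1% of Uhrf1 and 52.2% of Cdc45. In brain at day 14 the same 7 genes, and no others, had 50% or more there, from 56.2% for Uhrf1 to 81.5% for Cdc6. At the other end, Rfc2, Rpa2, Nasp, Slbp and Pcna had between 10.7% and 14.2% of their UMIs in replication-rich cells in spinal cord at day 14 and between 12.3% and 15.7% in brain at day 14. Pclaf was seen in 37.5% of replication-rich and 0.652% of other cells in spinal cord at day 14, whereas Slbp was seen in 43.0% and 15.0%.

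Setting the concentration in one tissue against the change in the other keeps the 2 measures in separate libraries. The 16 genes most concentrated in brain at day 14 (27.0% to 81.5% of UMIs in replication-rich cells) had a median spinal cord log2 ratio of -1.02, with 13 called lower. The 16 least concentrated (12.3% to 25.7%) had a median of -0.22, with 3 called lower. Across the 32 genes Spearman's rho was -0.80, given as a description, since the genes share cells and libraries. In the other direction, concentration in spinal cord at day 14 against the brain ratio, rho was -0.47, the medians were -0.41 and -0.12, and 3 genes were called lower on either side.

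**Figure D5:**
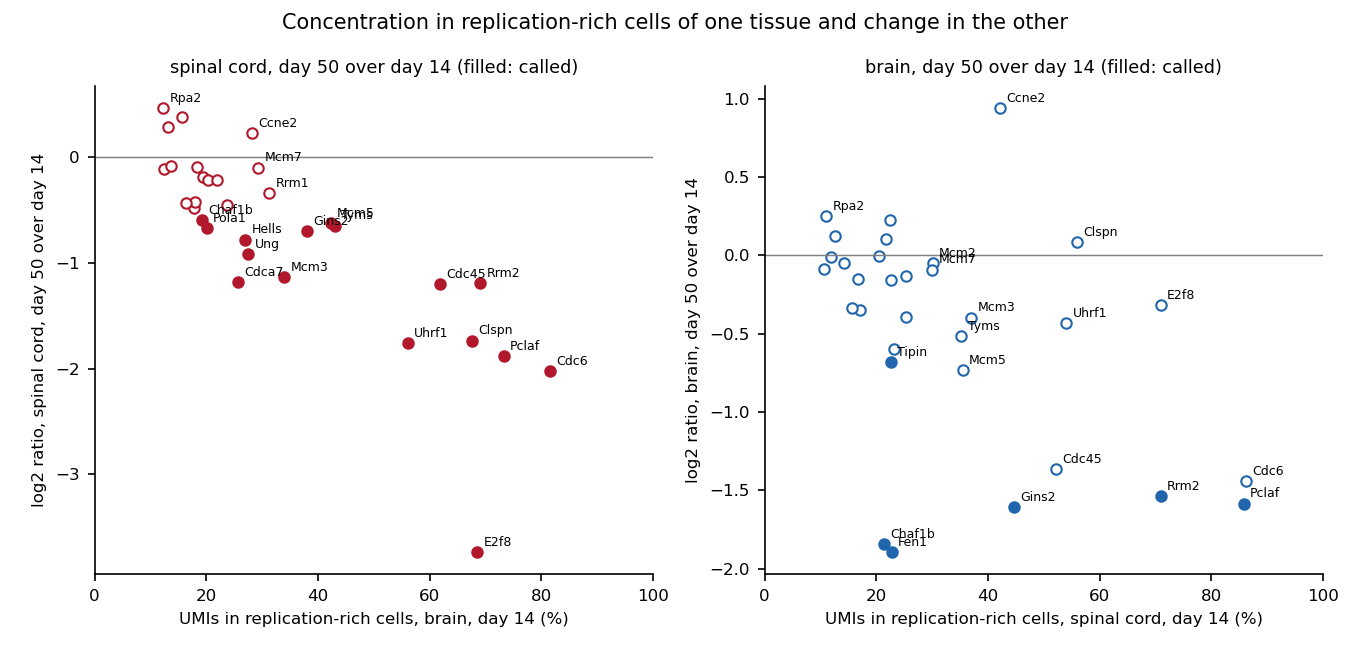
Log2 ratio of day 50 over day 14 in one tissue (vertical) against the share of a gene's UMIs found in replication-rich cells of the other tissue at day 14 (horizontal, percent), 1 circle per gene, filled where called lower; labels are given for called and strongly concentrated genes. In the left panel the 7 genes over 50% lie between spinal cord ratios of -3.74 and -1.20.

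Cells outside the replication-rich class were then compared alone, with each gene's class again set by the other 31. In these cells 3 of the 30 genes compared were called lower in spinal cord at day 50 (Cdca7, Ung and Dtl) and 2 higher (Rpa2 and Ccne2), where 9.26% of all genes were called lower and 12% higher. In all thinned cells of spinal cord the counts had been 12 lower and 1 higher of 32, with between 4 and 12 lower over 20 other draws. Since the 32 genes occur together, leaving out replication-rich cells removes UMIs of each gene by construction. The smaller number of calls is thus a description. Some genes not called there had few UMIs left, such as Pclaf, with 4 at day 50 (log2 ratio -1.29, -3.21 to 0.13). In brain 0 of 31 were called in either direction outside the class, where 2.21% of all genes were called lower and 5.83% higher, and in all thinned brain cells 0 of 32 had been called. The 3 and 2 spinal cord calls varied with the draw, each between 0 and 4 over 20 other draws. In day 14 spinal cord against brain, Pclaf was lower outside replication-rich cells (-1.53, -1.94 to -1.13).

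Replication-rich cells overlapped with cells in G2 or mitosis. At least 2 of the 26 G2 and mitosis genes were detected in 5 of 16 replication-rich cells in spinal cord at day 50 (31.3%, 11 to 58.7), 166 of 403 in spinal cord at day 14 (41.2%, 36.3 to 46.2), 2 of 3 in brain at day 50 and 232 of 414 in brain at day 14 (56.0%, 51.1 to 60.9). In other cells the shares were 1.42%, 3.26%, 0.810% and 5.65% in that order. The share with G2 and mitosis genes was lower in spinal cord than in brain at day 14 in both classes. Conversely, 158 of the 403 in spinal cord and 114 of the 414 in brain at day 14 had none of the 26 genes at this depth.

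Within the day 14 libraries the replication-rich cells also differed from the other cells in genes outside the set. In spinal cord 11 of 17 genes of E2F and G1/S control were called higher in them and 0 lower, where 8.76% of all genes were called higher and 3.2% lower. In brain 11 of 17 were higher and 1 lower, where 10.8% of all genes were higher and 4.23% lower. In the 16 replication-rich cells of spinal cord at day 50, 0 of the 12 genes compared were higher and 1 lower (2.8% and 0.294% of all genes), and in the 3 of brain at day 50, 0 of 7 were called in either direction (3.35% and 1.03% of all genes). E2f1, the founding activator of the E2F family, was at 42.2 CPM in replication-rich and 1.49 CPM in other cells of spinal cord (log2 ratio 4.82, 4.04 to 5.62), and at 24.2 and 2.06 CPM in brain (3.55, 2.68 to 4.38). E2f7, partner of E2f8, had ratios of 3.85 and 4.4. Of the 53 other replication genes 48 were called higher in each tissue, with Mcm10 at 14.9 CPM in replication-rich and 0.229 CPM in other cells of spinal cord. Samhd1, which degrades deoxynucleotides, was the exception called lower in both, at -0.89 and -0.82.

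Of 12 genes of memory and of exit from tissue, 7 were called lower in replication-rich cells and 0 higher in spinal cord at day 14 (3.2% and 8.76% of all genes), and 6 lower and 1 higher in brain at day 14 (4.23% and 10.8%). At day 50, 1 of 12 was called lower and 0 higher in spinal cord, where 0.294% of all genes were lower and 2.8% higher. In the day 50 brain library 0 of 11 were called, where 1.03% of all genes were lower and 3.35% higher. The replication-rich classes of these libraries held 16 and 3 cells. Tcf7, the stem-like memory factor, was at 42.2 CPM in replication-rich and 138 CPM in other cells of spinal cord at day 14 (-1.71, -2.24 to -1.22), and at 39.9 and 161 CPM in brain (-2.01, -2.55 to -1.52). Il7r, the receptor for the survival cytokine interleukin 7, was at 304 and 577 CPM in spinal cord (-0.92) and at 214 and 539 CPM in brain (-1.33). Klf2 and S1pr1, which govern exit from tissue, were called lower in both libraries. The 1 gene of this list called higher in brain is not named here. Of the 12 effector genes, 3 were called higher and 1 lower in replication-rich cells of spinal cord at day 14. In brain at day 14, 3 were higher and 2 lower, beside the day 14 shares of all genes given above. The transcripts of the surface proteins stained in this study, Cd69, Cxcr6 and P2rx7, were not called in either, with ratios between -0.46 and 0.56. Of the brakes, Btg1 was called lower in both (-0.68 and -0.86), whereas Cdkn2a and Cdkn2c, which encode inhibitors of CDK4 and CDK6, were called higher in both.

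Surface protein was read from antibody counts in the same cells. Per 1000 RNA UMIs, CXCR6 antibody was counted 3.95 times in replication-rich and 5.30 times in other cells of spinal cord at day 14, and 3.29 and 5.01 times in brain at day 14. CD69 antibody was counted 3.17 and 3.84 times in spinal cord and 1.5 and 1.79 times in brain, and P2X7R antibody 2.55 and 3.06 times in spinal cord and 1.27 and 1.72 times in brain. All 3 were lower per RNA UMI in replication-rich cells of these libraries, which held more RNA: their median unthinned totals were 8442 and 7698 UMIs, against 4886 and 4247.5 in other cells of the same libraries. As median counts per cell, however, all 3 were higher in replication-rich cells of the day 14 libraries. CXCR6 was 29 in replication-rich and 22 in other cells of spinal cord and 20 and 15 in brain. CD69 was 18 and 9 in spinal cord and 6 and 4 in brain, and P2X7R was 12 and 9 in spinal cord and 6 and 5 in brain. In spinal cord at day 50 CD69 antibody was higher per 1000 RNA UMIs in replication-rich cells, at 2.99 against 2.65 in other cells, and P2X7R (2.26 and 2.71) and CXCR6 (3.94 and 4.54) were lower. In the 3 replication-rich cells of brain at day 50 P2X7R was higher, at 1.26 against 0.803 in other cells, and CD69 (0.158 and 1.25) and CXCR6 (0.684 and 2.15) were lower. The 16 replication-rich cells of spinal cord at day 50 had a median of 6199 RNA UMIs, against 3586 in other cells. Their median counts per cell were 14 for CD69, 4.5 for P2X7R and 16.5 for CXCR6, against 5, 7 and 11 in other cells. Doublets also hold more RNA; their part in the replication-rich class was not tested in the day 14 libraries, where Scrublet called 0.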

How the data were processed

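The deposited values were raw UMI counts per feature and cell barcode in 1 matrix per RNA library, made with Cell Ranger 6.1.1, per the file headers. The build was mm10, per the submitters' processing notes. The authors normalized nothing before deposit, and cell calling had been done. The 3 antibody features were read from the same matrices by identifier (CD69, P2X7R, CXCR6), since the name column of those features gives other names for P2X7R and CXCR6. The 32 genes and all other lists were chosen with earlier results of these data known. The list genes named are up to 4 per comparison whose interval lies farthest from 0 among genes called; genes named between replication-rich and other cells were chosen after their values were seen. Values of some S phase repair genes are not reported here.

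Kept cells had 500 genes or more and no more than 10% mitochondrial UMIs, and doublets were not removed; Scrublet (scanpy 1.11.5, expected rate 0.8% per 1000 barcodes) called 13 cells in spinal cord at day 50, 5 in brain at day 50 and 0 in both day 14 libraries, so it did not work there. For each gene the counts of a library's kept cells were added up and scaled to CPM by the library's RNA total, between 1177903 and 50710551 UMIs. Levels carry exact Poisson and ratios exact conditional binomial 95% intervals. Genes with 10 or more UMIs over both libraries were compared; a call needs 1.5-fold and an interval excluding 1, after the median log2 ratio of all genes was subtracted where its size passed 0.1. Cells are not replicates and each group is 1 library, so no p-value is given. Thinning drew 2000 UMIs per cell without replacement; shallower cells, 127 in spinal cord at day 50, 142 in spinal cord at day 14, 98 in brain at day 50 and 1163 in brain at day 14, were left out. Alternatives were no subtraction, TMM factors (edgeR 4.0.16), other filters on cells and UMIs, removal of Scrublet calls, thinning, and other limits for replication-rich cells; other thinning draws and the values outside replication-rich cells were added after the data were seen. The scripts were checked on simulated data. Python 3.11.15, numpy 2.4.6, scipy 1.17.1 and pandas 2.3.3 were used.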

Additional observations from a re-analysis of the deposited data

How the results depend on the processing

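No paired analysis was possible because there was only 1 library in every group and no label ties a tissue to a mouse. In spinal cord, day 50 over day 14, the count of genes called lower was 16, and lay between 12 and 21 under the other settings; over 20 added thinning draws the lowest was 4, with up to 2 genes higher, and 1 higher in the draw used in the report. Without subtraction the spinal cord sum passed the limit at -0.59. The share of replication-rich cells in spinal cord was no longer called with a limit of 3 genes (log2 ratio -0.47). In brain, day 50 over day 14, the count of 6 became 0 in thinned cells (lowest of the added draws 0, with up to 1 higher). The brain share was no longer called with a limit of 8 genes (-2.28), in cells thinned to 1000 UMIs (-1.54) and in the highest of the added draws (-0.65). The draw used held 3 such brain cells at day 50, equal to the lowest of the added draws, whose median was 5. At day 14, spinal cord over brain, the single lower gene became 0 without subtraction (with 1 higher) and with TMM factors, and 2 when cells needed 1000 genes and no more than 5% mitochondrial UMIs, and in thinned cells (highest of the added draws 2, with up to 1 higher). At day 50, spinal cord over brain, the 4 lower genes became 2 under the stricter cell filter, and 1 in thinned cells, without the 2 richest cells per gene, and with at least 50 UMIs over both libraries (lowest of the added draws 0). The higher gene there became 0 in thinned cells (lowest of the added draws 0). The causes were not tested, except that thinning and the stricter filters leave fewer UMIs or cells by construction. Leaving out 2 cells takes a larger part from the smaller library. The 348 cells of brain at day 50 limit every ratio in which they enter.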
